A study of Mus musculus with 12 samples.

Results

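The genes described here encode 5 parts of the phagocyte NADPH oxidase: Cybb, Cyba, Ncf1, Ncf4 and Rac2. They were taken by gene symbol from the annotation of the array platform, which assigned 10 probe sets to them, 3 each to Cybb and Ncf1, 2 to Rac2 and 1 each to Cyba and Ncf4. The whole table held 34945 probe sets with a single symbol, for 18193 genes. All 10 oxidase probe sets were among the 21363 probe sets that passed the filter on low signal and were tested.

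The samples were 12 mouse RNA samples, each hybridised to 1 Affymetrix array, in 4 groups of 3. The groups were Stat5 knockout cells treated, Stat5 knockout cells untreated, control cells treated and control cells untreated. Per the design text the knockout mice lacked both Stat5a and Stat5b in blood cells and the control mice had them. The labels name neither the deleting allele and its driver nor the strain or age. The treatment field of the labels reads with or without "GMP", and since titles of untreated samples carry the same letters, neither the agent, the dose nor the cell type is settled by them. The study's title places the work in granulopoiesis driven by GM-CSF, a cytokine that signals through STAT5. Separate animals are not stated for the samples of a group, and the p-values below reflect sample-to-sample spread that may be technical.

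The phagocyte oxidase is an enzyme of neutrophils, monocytes and macrophages that passes electrons from NADPH to oxygen and so makes superoxide, which is used against ingested microbes. Its membrane core is a pair of proteins, gp91phox from Cybb, which carries the electrons, and p22phox from Cyba, which stabilises it. In resting cells the organiser p47phox (Ncf1) and the regulator p40phox (Ncf4) wait in the cytosol with p67phox, and on activation they join the core together with the small GTPase Rac2. Loss of the core or of p47phox causes chronic granulomatous disease, in which phagocytes take up microbes but fail to kill them. Myeloid precursors acquire the enzyme during differentiation, and PU.1, interferon regulatory factors and C/EBP factors are known regulators of Cybb and Ncf1.

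The 5 genes differed in pattern over the 4 groups. Fitted treatment differences were above 0 for Cybb and Ncf1 and below 0 for the bright Rac2 probe set, in both genotypes. Cyba, Ncf4 and the bright Rac2 probe set had higher signals in knockout than in control arrays on every date. Of all these differences 1 passed the test, the rise of an Ncf1 probe set with treatment of knockout cells.

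Each of the 3 array dates holds all 4 groups once, and date 2 stood apart in RNA quality. Its 4 arrays had 3' over 5' signal ratios, a gauge of shortened target, between 20.8 and 266 for Actb. The 8 arrays of dates 1 and 3 had Actb ratios between 1.14 and 2.05. Gapdh ratios were 28.2 to 80.7 against 1.56 to 3.90 in that order of dates. The highest ratio for both genes belonged to the control treated array of date 2. Stat5a on its brightest probe set averaged 36.0 ± 8.84 in knockout treated, 60.6 ± 35.4 in knockout untreated, 653 ± 254 in control treated and 962 ± 165 in control untreated cells (SD, n = 3 arrays each), which matched the labels.

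Signals are MAS5 intensities on a linear scale, given for dates 1, 2 and 3 in that order. Log2 changes were fitted with limma on log2(signal + 13) with array date as a block. They are given with the standard error. Adjusted p-values are Benjamini-Hochberg values across the 21363 probe sets, and a value under 0.05 passed. A level of one probe set is not comparable with that of another.

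**Figure D1:**
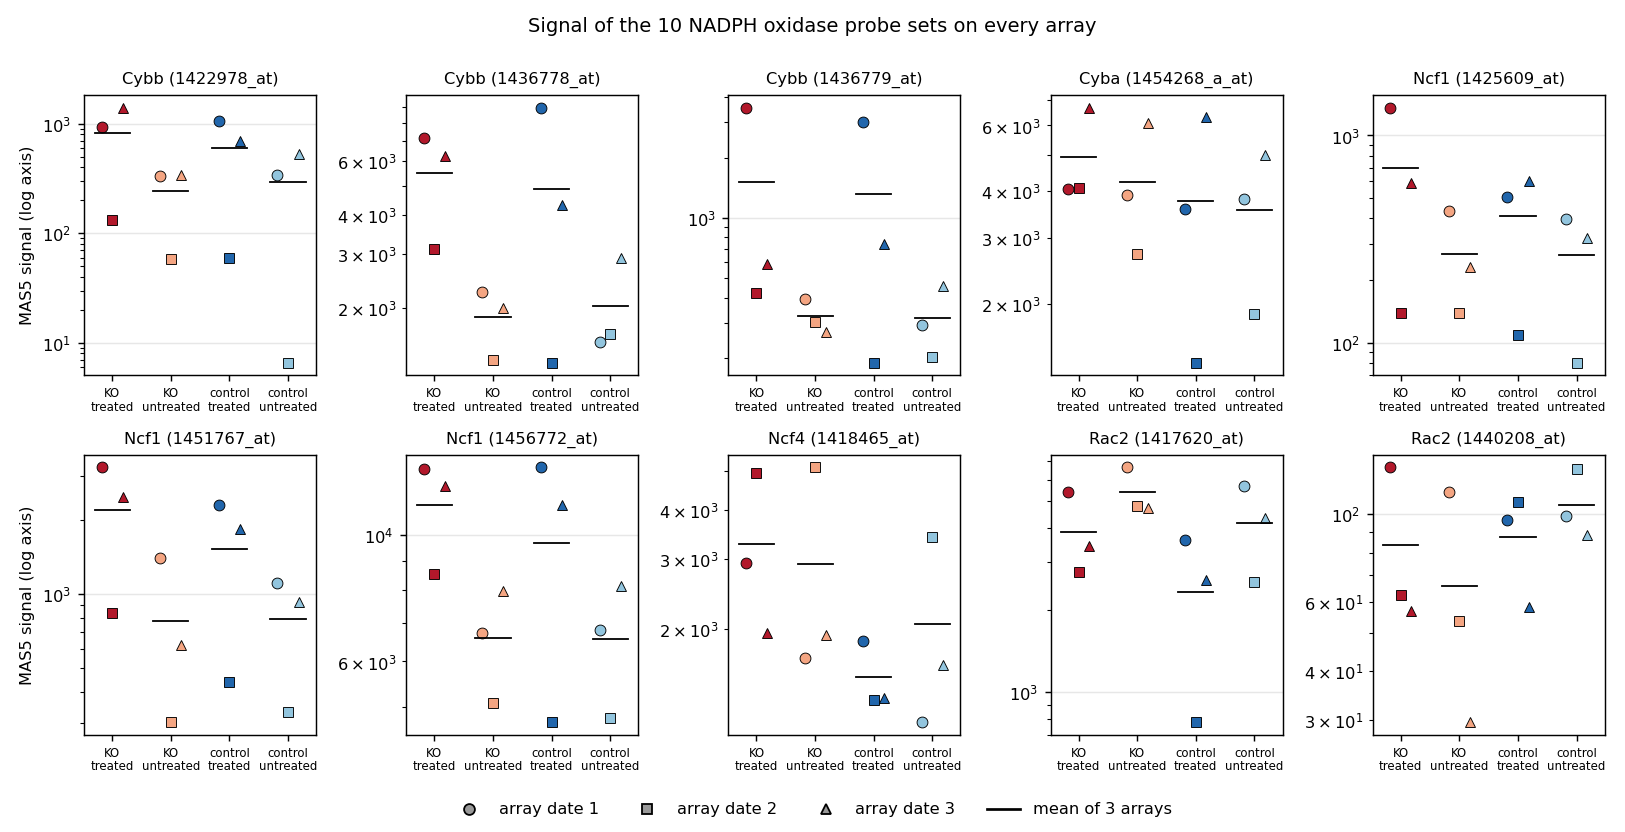
MAS5 signal (log axis) of each of the 10 oxidase probe sets on each of the 12 arrays, by group, with symbols for the array date and a line at the mean of 3 arrays. The treated arrays of dates 1 and 3 stand highest for Cybb and Ncf1, and the control treated array of date 2 is the lowest of the 12 for Cyba and for Rac2 1417620_at.

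Cybb encodes the electron-carrying subunit, and its brightest probe set, 1436778_at, had signals of 7158, 3110 and 6231 in knockout treated cells. In knockout untreated cells the signals of Cybb 1436778_at were 2243, 1355 and 1992. The 2 groups did not overlap, and the treated array was the higher on every date. In control treated cells Cybb 1436778_at had 8957, 1323 and 4331, and in control untreated cells 1543, 1638 and 2893. Here the groups overlapped, because on date 2 the treated array was the lower. The fitted treatment difference of Cybb 1436778_at was 1.50 ± 0.43 on the log2 scale in knockout cells (a 2.83-fold difference, limma adjusted p = 0.0587) and 0.93 ± 0.43 in control cells (adjusted p = 0.254).

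The other Cybb probe sets had treatment differences above 0 as well. For Cybb 1422978_at the treatment difference was 1.49 ± 0.43 in knockout cells (limma adjusted p = 0.0567) and 1.29 ± 0.43 in control cells (adjusted p = 0.115). This set was dim on date 2, at 132 in knockout treated, 58.4 in knockout untreated, 59.2 in control treated and 6.58 in control untreated cells, against 332 to 1401 on the other dates. For Cybb 1436779_at, annotated to the same sequence record as 1436778_at, the differences were 1.56 ± 0.66 in knockout cells and 1.30 ± 0.66 in control cells. They came mainly from date 1, where Cybb 1436779_at differed by 3.12 in knockout and 3.31 in control cells, while dates 2 and 3 gave 0.46 and 1.09 in knockout and -0.08 and 0.69 in control cells. Without date 2, Cybb 1436778_at and 1422978_at passed the test in knockout cells, with differences of 1.65 and 1.73 (limma adjusted p = 0.0416 and 0.0184).

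Cyba encodes the subunit that stabilises gp91phox in the membrane and had a single probe set, 1454268_a_at. Its signals were 4045, 4072 and 6690 in knockout treated and 3907, 2720 and 6094 in knockout untreated cells. In control treated cells Cyba had 3592, 1393 and 6323, and in control untreated cells 3817, 1882 and 5011. All 4 groups overlapped, and date 3 was the highest date in each. The treatment difference of Cyba was 0.25 ± 0.29 in knockout cells, with a 95% interval from -0.40 to 0.91, and -0.06 ± 0.29 in control cells, with an interval from -0.72 to 0.59.

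Ncf1 encodes the organiser that carries the cytosolic subunits to the membrane. Its probe set 1451767_at had signals of 3260, 839 and 2475 in knockout treated and 1402, 302 and 624 in knockout untreated cells. Treated arrays were higher on each date by 1.21, 1.43 and 1.97 on the log2 scale, although the ranges of the groups overlapped because signals on date 2 were low. Ncf1 1451767_at rose by 1.54 ± 0.25 in knockout cells, a 2.90-fold change (limma adjusted p = 0.00689), and its change ranked at percentile 96.1 of all tested probe sets. In control cells Ncf1 1451767_at had 2296, 440 and 1829 with treatment and 1107, 334 and 929 without it. The treated array was again the higher on all dates, by 0.80 ± 0.25 (adjusted p = 0.105).

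The brightest Ncf1 probe set, 1456772_at, had 13052, 8526 and 12177 in knockout treated and 6724, 5079 and 7962 in knockout untreated cells. These groups did not overlap, and the difference was 0.77 ± 0.25 (limma adjusted p = 0.0879). With treatment of control cells Ncf1 1456772_at had 13118, 4696 and 11258, against 6824, 4776 and 8125 without it, a difference of 0.46 ± 0.25 (adjusted p = 0.335). Dates 1 and 3 thus showed a treated array above its untreated partner, and date 2 did not. The dimmest set, Ncf1 1425609_at, ranged from 80.0 to 1360 and differed by 0.98 ± 0.36 in knockout and 0.55 ± 0.36 in control cells. It is annotated to the same sequence record as 1451767_at.

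Ncf4 encodes the subunit that binds phosphoinositides of the phagosome membrane. Its probe set 1418465_at had 2944, 4947 and 1961 in knockout treated and 1689, 5113 and 1932 in knockout untreated cells. In control treated cells Ncf4 had 1867, 1327 and 1345, and in control untreated cells 1166, 3406 and 1628. Unlike Cybb and Ncf1, Ncf4 was brightest on date 2 in 3 of the 4 groups. Its treatment difference was 0.26 ± 0.38 in knockout cells and -0.32 ± 0.38 in control cells, and without date 2 the value in control cells was 0.20.

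Rac2 encodes the GTPase that completes the active complex and has other roles in blood cell movement. Its bright probe set 1417620_at had 5407, 2745 and 3432 in knockout treated and 6646, 4816 and 4721 in knockout untreated cells. In control treated cells Rac2 1417620_at had 3604, 776 and 2569, against 5660, 2538 and 4323 in control untreated cells. Treated arrays were lower on all 3 dates in both genotypes, though the ranges overlapped. The difference was -0.52 ± 0.33 in knockout cells (limma adjusted p = 0.365) and -1.03 ± 0.33 in control cells (adjusted p = 0.107; -0.70 without date 2). A dim second set, Rac2 1440208_at, lay between 29.7 and 132 and exceeded the median of all signals, 70.5, on 7 of 12 arrays.

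**Figure D2:**
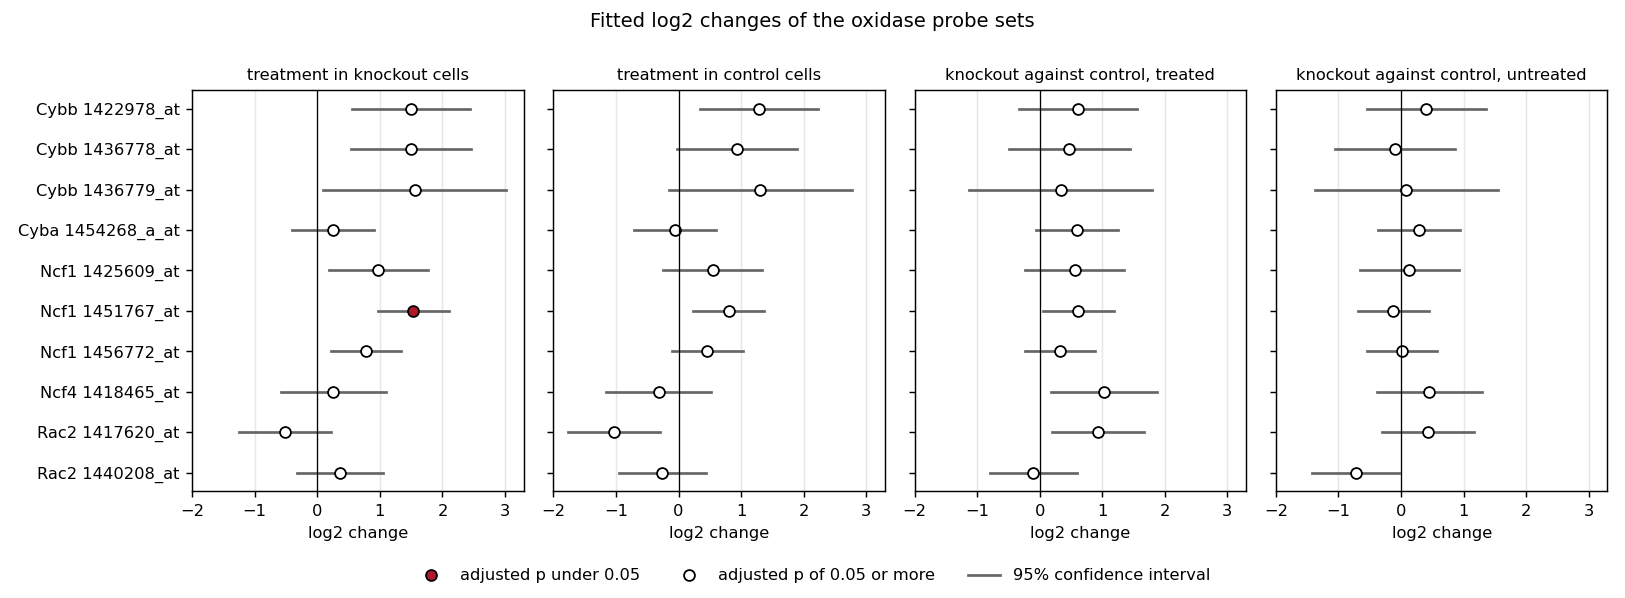
Fitted log2 changes of the 10 oxidase probe sets (points) with 95% confidence intervals (lines) in the 4 pairwise comparisons, where a filled point has an adjusted p under 0.05. The only filled point is Ncf1 1451767_at for treatment in knockout cells, at 1.54.

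With treatment of knockout cells 9 of 10 oxidase probe sets had a positive and 1 a negative difference. The median was 0.87 on the log2 scale over the 10 probe sets, 6 of which belong to Cybb and Ncf1, and 0.26 over the 5 genes with the brightest probe set each, against 0.01 over all tested probe sets. By limma 1 of 10 passed the threshold, where 8.66% of all tested probe sets did, and 6 had an unadjusted p under 0.05, against 24.9% of all. Treated arrays were higher on all 3 dates for 7 of the 10, against 25.7% of all tested probe sets. Groups did not overlap for Cybb 1436778_at, Cybb 1436779_at and Ncf1 1456772_at, 3 of the 10, against 19.5% of all. The probe sets of a gene share its transcript, so these counts hold fewer than 10 independent values. In bulk RNA, fewer cells of a type and less RNA per cell cannot be told apart.

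The call of Ncf1 1451767_at held without each of the 12 arrays in turn, with limma adjusted p from 0.00435 to 0.0405, and failed without the date block (adjusted p = 0.464). Without date 2 the oxidase probe sets past the threshold numbered 4, namely Ncf1 1451767_at, Ncf1 1425609_at, Cybb 1422978_at and Cybb 1436778_at. Calls over all probe sets moved as well, from 343 to 2262 over such changes of setting, against 1849 in the main fit.

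In control cells the treatment difference was positive for 6 of the 10 probe sets and negative for 4, with a median of 0.50 over the 10 probe sets but -0.06 over the 5 genes, against -0.01 over all. None passed in limma, where 4.70% of all tested probe sets did, and 3 had an unadjusted p under 0.05, against 20.8% of all. These were Cybb 1422978_at, Ncf1 1451767_at and Rac2 1417620_at. Treated arrays were higher on all 3 dates for 3 of the 10, which were Cybb 1422978_at, Ncf1 1425609_at and Ncf1 1451767_at, against 24.1% of all. The groups overlapped for all 10, where they were apart for 14.7% of all tested probe sets.

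Cell type markers were measured beside these treatment differences, for which 8.66% of all tested probe sets passed in knockout and 4.70% in control cells. Of 6 tested monocyte and macrophage markers of 8 listed, 1, Cd14, rose with treatment in both genotypes. The median difference of the 6 was 0.02 in knockout and 0.57 in control cells, and Adgre1 differed by -0.74 ± 0.26 and 0.58 ± 0.26. The summed signal of the 6 was 22948 to 36524 in knockout treated and 11054 to 25815 in knockout untreated cells. In control cells it was 19424 to 45845 with treatment and 10500 to 29738 without it. The highest sum of each group was that of date 2. Of 7 tested maturing neutrophil markers of 9 listed, 0 passed in limma in any comparison. Their sum was 9812 to 26449 in knockout treated, 5820 to 19265 in knockout untreated, 5874 to 14195 in control treated and 5318 to 28372 in control untreated cells. All 8 granulocyte and monocyte progenitor markers were tested and 0 passed. Their sums went with the array date, at 121998 to 207588 on date 2 and 62492 to 71507.5 on dates 1 and 3. Of 3 tested lymphoid markers of 8 listed, 1, Il7r, rose in knockout cells, from a dim 23.7 ± 12.6 untreated to 879 ± 761 treated. The sum of the 3 was 2231 to 6124 in knockout treated, 8062 to 9737 in knockout untreated, 1519 to 5863 in control treated and 7780 to 8687 in control untreated cells. Most of that sum was Nkg7, which differed by -1.47 ± 0.45 in knockout and -1.42 ± 0.45 in control cells (limma adjusted p = 0.0711 and 0.102). Of 6 tested dendritic cell markers of 7 listed, 1, Cd74, rose in both genotypes. The median was 0.09 in knockout and -0.06 in control cells, and H2-Ab1 differed by -0.55 ± 0.26 and -0.60 ± 0.26. Of 7 tested erythroid and megakaryocyte markers of 9 listed, 1, Car1, fell in control cells (medians 0.13 and -0.19). Of 6 tested mast cell, basophil and eosinophil markers of 7 listed, 0 passed in any comparison. Their median difference was 0.03 in knockout and -0.45 in control cells, and they did not share a direction. Cpa3 differed by -1.23 ± 0.35 in knockout and -1.28 ± 0.35 in control cells, and Gata2 by 0.35 ± 0.30 and 0.80 ± 0.30. Cd79a, Ebf1, Cd3e and Cd3g, which define B and T cells, and the globin gene Hba-a1 did not pass the filter on low signal. The part of cell composition in the oxidase values was not tested.

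The question whether the oxidase response to treatment depends on Stat5 was addressed by subtracting the control response from the knockout response. This difference was positive for all 10 probe sets, from 0.20 to 0.74, and had a median of 0.47, against 0.03 over all tested probe sets. With 1 probe set per gene the median was 0.51 over the 5 oxidase genes. It was 0.91 over 7 maturing neutrophil markers and -0.15 over 6 monocyte and macrophage markers, so a positive median was not particular to the oxidase. In limma 0 of 10 passed, as did 0% of all 21363 probe sets, and 0 of the 10 had an unadjusted p under 0.05, against 2.57% of all. Without date 2 the median of the 10 probe sets was 0.26, and 9 of the 10 values were positive. Cybb 1436778_at was then at 0.0999, Ncf1 1456772_at at 0.0781, Ncf4 at 0.21 and Cyba at -0.0317. On date 2 the Actb ratio of the control treated array was 266. The largest was that of Ncf1 1451767_at, 0.74 ± 0.36, with a 95% interval from -0.06 to 1.54 (adjusted p = 1). For Cybb 1436778_at it was 0.57 ± 0.61, with an interval from -0.79 to 1.92, and leaving out 1 array at a time gave 0.0575 to 1.12. The dim set Rac2 1440208_at was higher with treatment on all 3 dates in knockout cells and lower on all 3 in control cells, with a difference between the responses of 0.62 ± 0.44 (adjusted p = 1).

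**Figure D3:**
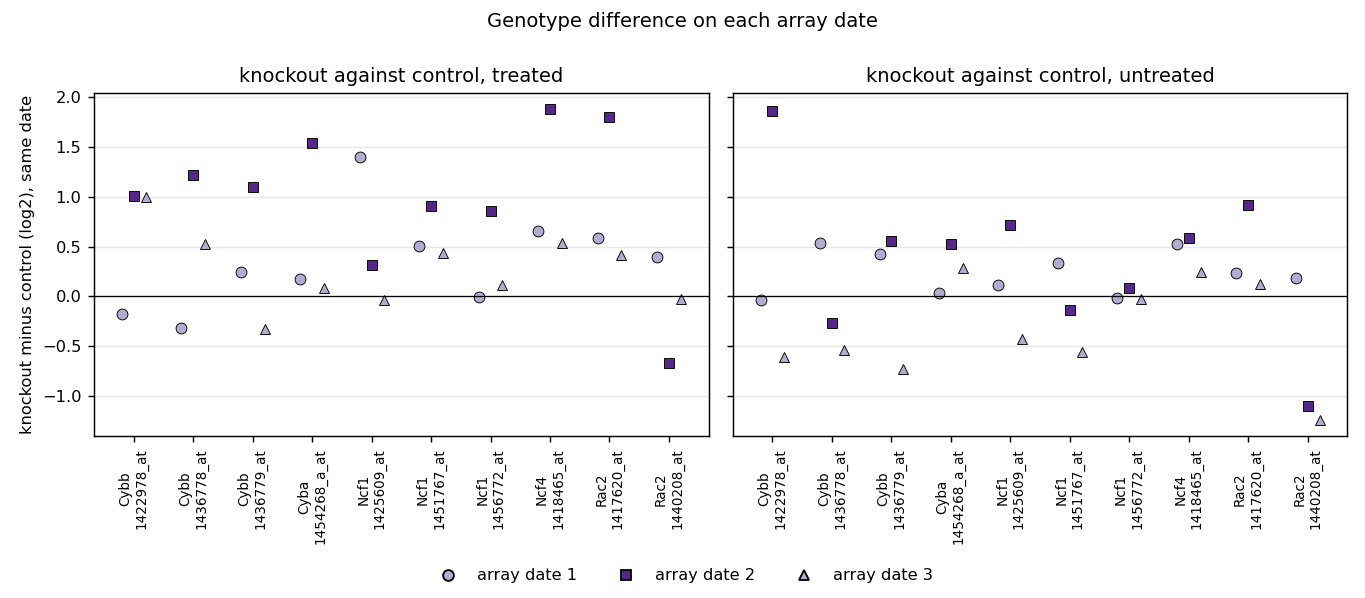
Difference between the knockout and control arrays of the same date (log2) for each oxidase probe set, with treatment (left) and without it (right), and darker squares for date 2. Cyba, Ncf4 and Rac2 1417620_at lie above 0 on every date in both panels, and with treatment their date 2 values of 1.54, 1.89 and 1.81 stand well above those of the other dates.

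Knockout cells were next set against control cells under treatment. Ncf4 was higher in knockout treated than in control treated cells on every date, by 0.65, 1.89 and 0.54 on the log2 scale, and the 2 groups did not overlap. The fitted difference of Ncf4 was 1.03 ± 0.38 (limma adjusted p = 0.584). Rac2 1417620_at was higher by 0.58, 1.81 and 0.42 on the 3 dates, a difference of 0.93 ± 0.33 (adjusted p = 0.584). For Cyba the 3 dates gave 0.17, 1.54 and 0.08, and the difference was 0.60 ± 0.29 (adjusted p = 0.589). Without date 2 these values were 0.60 for Ncf4, 0.50 for Rac2 1417620_at and 0.13 for Cyba, so date 2 made up much of each.

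In all, 9 of 10 probe sets were higher in knockout treated than in control treated cells, with a median of 0.58 against -0.01 over all. Without date 2 that median was 0.30. With 1 probe set per gene and all dates, the median was 0.60 over the 5 oxidase genes. It was 0.69 over 7 maturing neutrophil markers and -0.21 over 6 monocyte and macrophage markers. By limma 0 of 10 passed, against 0.0609% of all tested probe sets, and 3 had an unadjusted p under 0.05, against 8.46% of all, those of Ncf4, Rac2 1417620_at and Ncf1 1451767_at. Higher on all 3 dates were 4 of the 10, against 14.7% of all, and the groups did not overlap for 1, Ncf4, against 5.85% of all. On date 2 the Actb 3' over 5' ratio was 20.8 in knockout treated and 266 in control treated cells, and its part in these differences was not tested. The label of the knockout treated array of date 2 also carries another number tag than its 3 partners of that date, with no stated meaning.

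Knockout and control cells were then compared without treatment. The difference was positive for 7 of 10 probe sets, with a median of 0.11 against -0.03 over all tested, and for 4 of 10, with a median of -0.0693, without date 2. By limma 0 of 10 passed, against 0.00936% of all, and 1 had an unadjusted p under 0.05, against 2.43% of all, Rac2 1440208_at at -0.72 ± 0.31. The groups overlapped for all 10, where they were apart for 3.77% of all. Knockout arrays were higher on all 3 dates for 3 of the 10, Cyba, Ncf4 and Rac2 1417620_at, where 11.0% of all tested probe sets were. The differences were 0.28 ± 0.29 for Cyba, 0.45 ± 0.38 for Ncf4 and 0.43 ± 0.33 for Rac2 1417620_at (limma adjusted p = 1 for each). For Cybb 1436778_at the difference was -0.09 ± 0.43, with a 95% interval from -1.05 to 0.87, and for Ncf1 1456772_at 0.01 ± 0.25, with an interval from -0.55 to 0.57.

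Mean levels gave the same first place to several probe sets, but no order was clear. Knockout treated cells had the highest mean for all 3 Cybb sets, Cyba, all 3 Ncf1 sets and Ncf4, while Rac2 1417620_at was highest in knockout untreated and Rac2 1440208_at in control untreated cells. Cybb 1436778_at averaged 5500 ± 2121 in knockout treated, 1863 ± 458 in knockout untreated, 4870 ± 3845 in control treated and 2025 ± 753 in control untreated cells (SD, n = 3 each). Ncf1 1456772_at averaged 11252 ± 2401 in knockout treated, 6588 ± 1447 in knockout untreated, 9691 ± 4424 in control treated and 6575 ± 1688 in control untreated cells. The ranges of neighbours in the order of means overlapped for all 10 probe sets. These ranges include the differences between dates. The same was not counted over all tested probe sets, so the overlap is not read as a trait of the oxidase genes.

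**Figure D4:**
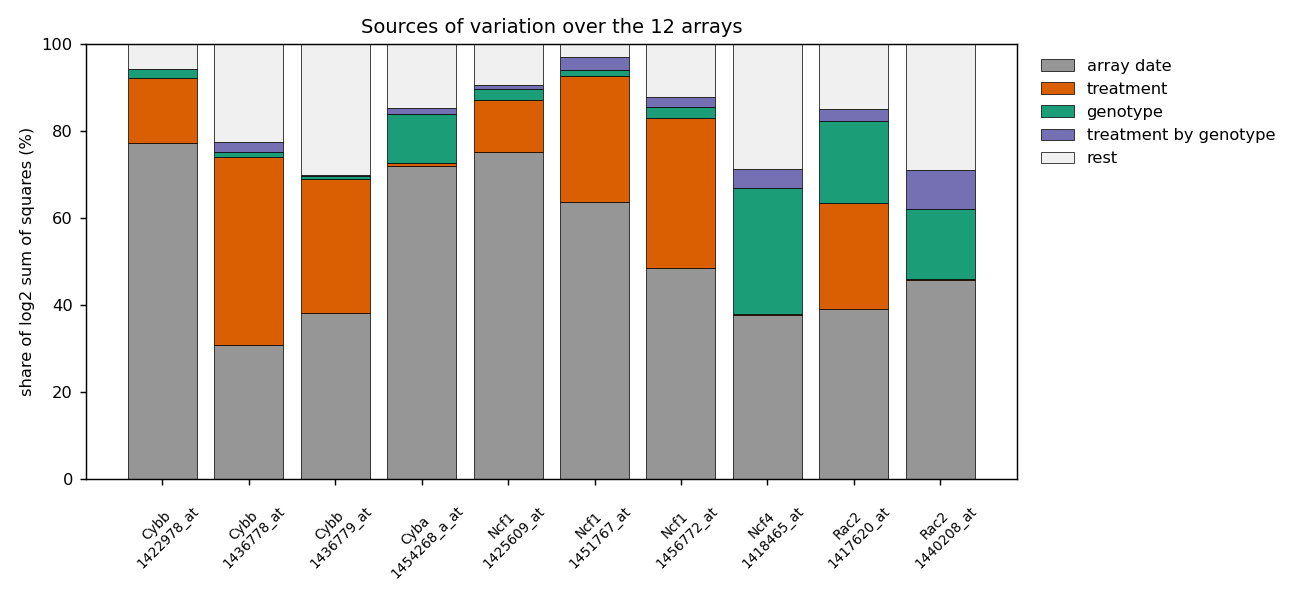
Share of the total sum of squares of log2(signal + 13) over the 12 arrays that belongs to array date, treatment, genotype, their interaction and the rest, for each oxidase probe set. Date takes from 30.8% to 77.2%, the highest treatment share is that of Cybb 1436778_at (43.4%), and the highest genotype share is that of Ncf4 (28.9%).

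The split of the variation differed between probe sets, also between those of 1 gene. Array date took 77.2% of the sum of squares of Cybb 1422978_at and 72.1% of that of Cyba, where the median over all tested probe sets was 42.3%. Treatment took 43.4% for Cybb 1436778_at, 34.5% for Ncf1 1456772_at and 29.1% for Ncf1 1451767_at, against a median of 9.83%. For Cyba and Ncf4 treatment took 0.544% and 0.0481%. Genotype took 28.9% for Ncf4, 18.8% for Rac2 1417620_at, 16.1% for Rac2 1440208_at, which was lower in knockout than in control cells, and 11.2% for Cyba, against a median of 3.06%, and from 0.664% to 2.53% for the Cybb and Ncf1 sets.

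Signals were also set against the mean of the same date, which takes out the date effect. On that scale 5 of the 6 treated arrays lay above 0 for both Cybb 1436778_at and Ncf1 1456772_at, and the other 7 arrays lay below 0 for both. The treated array among those 7 was the control treated array of date 2, at -0.39 for Cybb 1436778_at and -0.25 for Ncf1 1456772_at. The Pearson correlation of Cybb 1436778_at with Ncf1 1456772_at was 0.95 over the 12 arrays. Since the arrays form 2 clumps, it describes little more than that split. That same array lay furthest below its date mean for Cyba, Ncf4 and Rac2 1417620_at, at -0.73, -1.29 and -1.53 in that order of genes.

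**Figure D5:**
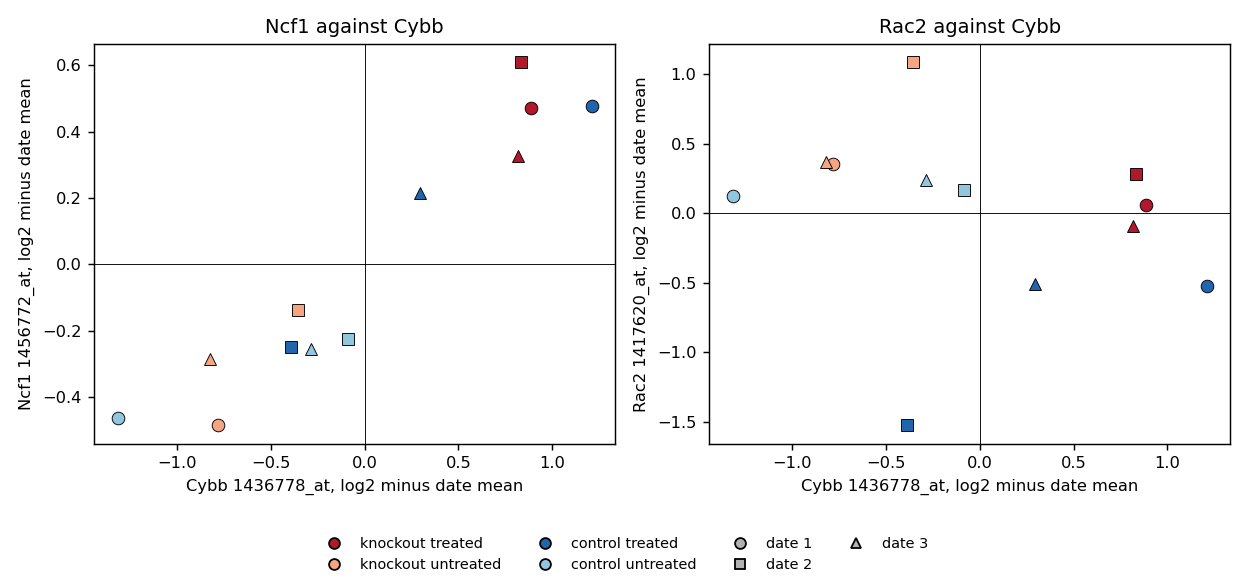
Log2(signal + 13) minus the mean of the same date for Ncf1 1456772_at (left) and Rac2 1417620_at (right) against Cybb 1436778_at, 1 point per array. For Ncf1, 5 of the 6 treated arrays lie at the upper right and the other 7 arrays at the lower left, while for Rac2 the control treated array of date 2 lies far below the other 11.

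The genes most like each oxidase gene were found by Pearson correlation of these date-centred signals over the 12 arrays, a description that shared treatment and array quality raise. For Cybb they were the interferon-inducible genes Parp9 (r = 0.97), Oas2 and Rsad2 (0.95 each). For Ncf1 they were Rabgap1 (0.98), the NF-kB inhibitor gene Nfkbia and again Rsad2 (0.98 each). Cyba was closest to Tmem115, the lysosomal protease gene Ctsd and Tbp (0.97 to 0.98). Rac2 was closest to Myg1, Rpn2 and Shkbp1 (0.98 to 0.99), and Ncf4 to Tm2d2, Cnpy2 and 1700028J19Rik (0.95 each).

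Promoter sequence is shown for Cybb and Ncf1 because they were above their date means on the same arrays. RefSeq promoter windows of 250 bases before and 50 after the annotated start (GRCm38.p6) were given for 3 of the 5 genes, Cyba, Cybb and Ncf1. They were searched on both strands for the STAT motif TTCNNNGAA, the PU.1 core GAGGAA, the interferon response core, which is GAAA and GAAA parted by any 2 bases, and the CCAAT box, chosen with the values known. The part before the start is printed 5′ to 3′ in the sense of the gene, with matches in capitals.
Cybb, chrX:9469325-9469574, minus strand: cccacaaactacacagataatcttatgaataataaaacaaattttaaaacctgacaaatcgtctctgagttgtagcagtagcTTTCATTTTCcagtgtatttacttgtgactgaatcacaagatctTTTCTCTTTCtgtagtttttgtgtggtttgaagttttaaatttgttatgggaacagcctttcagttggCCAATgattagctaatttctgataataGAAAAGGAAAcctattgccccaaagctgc
Ncf1, chr5:134229626-134229875, minus strand: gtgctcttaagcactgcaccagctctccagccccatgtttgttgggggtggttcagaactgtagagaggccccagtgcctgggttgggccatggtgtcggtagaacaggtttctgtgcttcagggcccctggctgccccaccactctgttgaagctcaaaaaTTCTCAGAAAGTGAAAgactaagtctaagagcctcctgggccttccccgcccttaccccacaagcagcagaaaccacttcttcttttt

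The interferon response core occurred at 3 places in Cybb, the first at position -168 from the start, and at 1 in Ncf1, at position -82. It was found in 3.44% of all 32851 promoter windows and had no match in Cyba. In Ncf1 the STAT motif matched at position -88 and overlaps the interferon response core there, so the capitals run together. The STAT motif was present in 8.30% of all windows and had no match in the Cybb and Cyba windows. The CCAAT box matched at -56 in Cybb (37.4% of all windows hold it), and the PU.1 core matched at 10 after the Cybb start, beyond the printed stretch (28.3% of all windows). A match is a description of these letters and not evidence of binding.

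Other genes tied to the oxidase were taken from 4 lists. In the list of further oxidase subunits and partners 5 of 15 genes were tested, and 0 passed in limma in any of the 5 comparisons. Cybc1, the chaperone gene of the gp91phox core, differed by -0.25 ± 0.26 with treatment of knockout cells and -0.44 ± 0.26 in control cells. Hvcn1, the proton channel gene that offsets the charge moved by the oxidase, had 819 ± 486 in knockout treated and 1359 ± 484 in knockout untreated cells (SD, n = 3 each). In control cells Hvcn1 had 645 ± 220 with treatment and 1136 ± 273 without it. The differences of Hvcn1 were -0.82 ± 0.29 in knockout (adjusted p = 0.114, unadjusted p = 0.0182 in limma) and -0.83 ± 0.29 in control cells (adjusted p = 0.14, unadjusted p = 0.0178). Rac1, the ubiquitous relative of Rac2, differed by -0.26 ± 0.45 and -0.50 ± 0.45 in knockout and control cells. The small GTPase genes Rap1a and Rap1b differed by -0.05 ± 0.21 and 0.35 ± 0.21 in knockout cells and by 0.05 ± 0.21 and 0.28 ± 0.21 in control cells. Probe sets of Nox4, Noxo1, Duox1, Duoxa1 and Duoxa2, which belong to the oxidases of other tissues, did not pass the filter on low signal.

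In the list of oxidase activation and trafficking 25 genes were tested, and 0 passed in comparisons other than treatment of knockout cells. There 1 of the 25 rose, where 8.66% of all tested probe sets passed. It was Pik3r5, the adaptor gene of phosphoinositide 3-kinase gamma, at 1207 ± 690 in knockout treated and 219 ± 112 in knockout untreated cells, a rise of 2.35 ± 0.42 (limma adjusted p = 0.00971). In control cells Pik3r5 differed by 1.57 ± 0.42 (adjusted p = 0.0619). S100a8 and S100a9, whose protein pair delivers arachidonic acid to the oxidase, differed by 0.52 ± 0.47 and 0.58 ± 0.40 in knockout cells and by -0.17 ± 0.47 and 0.12 ± 0.40 in control cells. The median of the list was 0.27 in knockout and -0.07 in control cells, against 0.01 and -0.01 over all tested probe sets, and 0.26 and -0.06 over the 5 oxidase genes on the same basis.

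Of 12 tested transcription factor genes linked to oxidase genes, Cebpb rose in both genotypes and Irf8 fell in control cells. Over all tested probe sets 8.66% passed in knockout and 4.70% in control cells. Cebpb, a C/EBP factor of activated myeloid cells, had 4562 ± 742 in knockout treated and 1537 ± 185 in knockout untreated cells, and rose by 1.56 ± 0.30 (limma adjusted p = 0.0128). In control cells Cebpb had 5167 ± 2029 with treatment and 1531 ± 278 without it, a rise of 1.68 ± 0.30 (adjusted p = 0.0128). Irf8, an interferon regulatory factor of the monocyte lineage and a known activator of Cybb, fell by 1.39 ± 0.32 in control cells (adjusted p = 0.0371), at 3321 ± 1484 with and 8474 ± 3616 without treatment. In knockout cells Irf8 differed by -0.64 ± 0.32 (adjusted p = 0.248), and the difference between the responses was 0.76 ± 0.45 (adjusted p = 1). Spi1, which encodes PU.1, differed by 0.996 ± 0.317 in knockout (limma adjusted p = 0.0816) and 0.83 ± 0.32 in control cells (adjusted p = 0.17). The list median was 0.60 in knockout and 0.23 in control cells.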

How the data were processed

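RNA of 12 samples was measured on Affymetrix Mouse430_2 arrays. Per the submitters' processing notes the intensity values that the authors deposited come from MAS5, and they are linear. Version and masking are not given in the sources used here. Trimmed means, without 2% at each end, were near 500.0 on every array, so the arrays share a scale. MAS5 uses mismatch probes, and its dim values are noisy.

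Gene names came from the platform annotation, and of 45101 probe sets those with 1 symbol were kept. The filter asked for an intensity above 70.5, which is the median over the table, on 3 or more arrays. Tests used log2(intensity + 13), where 13 is a rounded low percentile of the values, so that fold changes of dim probe sets are understated. All 12 arrays entered 1 model with 4 groups and array date as a block (limma 3.58.1, R 4.3.3, 6 residual and 4.21 prior degrees of freedom). Dates come from the sample titles. Deviations from group means correlated at 0.37 to 0.75 in all 18 same-date pairs and at -0.68 to 0.43 in 36 pairs of different dates and groups. The model was tested on simulated data. Precision is limited by 3 arrays a group. The median 95% interval reached 0.684 to either side in pairwise comparisons and 0.967 for the difference between responses.

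A listed gene was represented by its brightest tested probe set. Named were all members, all tested further subunits, and called genes of the other lists, with Spi1, Irf8, S100a8 and S100a9 as values. Cebpe, also in that rule, was not analysed here. Members and lists were chosen with earlier results of these data known. Alternatives were no date block, pseudocounts of 1 and 50, no filter, quantile normalization, 1 probe set per gene, only the compared groups, no date 2, and leaving out each array. Figures used matplotlib 3.10.9.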

Additional observations from a re-analysis of the deposited data

How the results depend on the processing

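The count of oxidase probe sets called for treatment in knockout cells, 1 in the main analysis, depended on the processing, and the cause was not tested. It was 0 without the replicate block, 0 with 1 probe set per gene (a brighter Ncf1 probe set then stands for the gene), 2 with quantile normalization, 3 with a pseudocount of 50, 3 with only the compared groups fitted and 4 without array date 2. Leaving out each array in turn gave 1 to 3, with 3 without the control treated array of date 2, and 2 without the knockout untreated array of date 2, the control treated array of date 1 or either control untreated array of dates 1 and 2. Calls over all probe sets moved as well, from 343 to 2262 under the changed settings and from 573 to 2636 with 1 array left out. The other 4 comparisons had 0 oxidase probe sets called under every alternative run. The dates pair the samples, and without the replicate block the limma adjusted p of Ncf1 1451767_at in knockout cells was 0.464, the 1 member value of 975 that lost its call, while 14 gained one, 919 kept side and sign and 41 changed sign, in 15 of 50 results.

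Results that changed sign included values of up to 0.475 in size (Cybb 1436778_at between treated genotypes). With quantile normalization Cyba differed by 0.0125 with treatment in control cells and Ncf1 1456772_at by -0.0514 between untreated genotypes. A pseudocount of 1 gave Cybb 1422978_at a difference between responses of -0.11. Without date 2 the treatment difference in control cells was 0.20 for Ncf4 and 0.12 for Cyba, and the difference between responses was -0.0317 for Cyba. Between treated genotypes it was -0.0427 for Cybb 1436779_at and 0.18 for Rac2 1440208_at. Between untreated genotypes it was -0.32 for Cybb 1422978_at, 0.000466 for Cybb 1436778_at, -0.15 for Cybb 1436779_at, -0.16 for Ncf1 1425609_at and -0.0252 for Ncf1 1456772_at.

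Leaving out 1 array at a time, Cyba ranged from -0.0518 to 0.44 for treatment in knockout cells and from -0.28 to 0.26 in control cells, where Ncf4 ranged from -0.70 to 0.19. Differences between responses ranged from -0.20 to 0.71 for Cybb 1422978_at, -0.42 to 0.96 for Cybb 1436779_at and -0.00562 to 0.53 for Cyba. Between treated genotypes the ranges were -0.0326 to 1.03 for Cybb 1436778_at, -0.33 to 0.97 for Cybb 1436779_at and -0.28 to 0.12 for Rac2 1440208_at. Between untreated genotypes they were -0.10 to 0.81 for Cybb 1422978_at, -0.59 to 0.23 for Cybb 1436778_at, -0.63 to 0.57 for Cybb 1436779_at, -0.25 to 0.43 for Ncf1 1425609_at, -0.29 to 0.13 for Ncf1 1451767_at and -0.10 to 0.13 for Ncf1 1456772_at.

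Over all probe sets the counts called by limma ran from 343 without the block to 2636 for treatment in knockout cells, against 1849, and from 172 to 1734 in control cells, against 1004. They ran from 0 to 28 between treated genotypes, against 13, from 0 to 2 between untreated genotypes and from 0 to 2 for the difference between responses. With 3 arrays a group, pairwise differences under about 0.684 on the log2 scale mostly lay within the 95% interval. For the difference between responses that size was 0.967.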

Other observations

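Genes that handle superoxide and peroxide were listed beside the oxidase, and 15 of 18 were tested. With treatment of knockout cells 4 rose and 0 fell, with a list median of 0.16, where 8.66% of all tested probe sets passed. With treatment of control cells 1 rose and 0 fell, with a median of 0.31, where 4.70% of all passed. Hmox1, the haem oxygenase gene, had 1031 ± 373 in knockout treated and 24.5 ± 17.1 in knockout untreated cells (SD, n = 3 each), a rise of 4.84 ± 0.73 on the log2(signal + 13) scale (limma adjusted p = 0.0045). In control cells Hmox1 had 176 ± 202 with and 13.0 ± 0.926 without treatment, a difference of 2.10 ± 0.73 (adjusted p = 0.132). The untreated signals of Hmox1 lay near the pseudocount and below the median of all signals, 70.5, so these sizes depend on the pseudocount, and the responses of the genotypes are not compared. The glutathione synthesis genes Gclm and Gclc rose by 1.54 ± 0.35 and 1.45 ± 0.28 in knockout cells, and Nqo1, a quinone reductase gene, by 1.54 ± 0.29. Untreated signals of Nqo1, 47.2 ± 4.77 in knockout and 47.5 ± 7.87 in control cells, also lay below that median of all signals. Gclm also rose in control cells, by 1.44 ± 0.35 (limma adjusted p = 0.0479). Below 0 and not called were the dim Gpx3, at -1.18 ± 0.47 in knockout and -1.68 ± 0.47 in control cells, and Prdx2, at -0.60 ± 0.22 and -0.74 ± 0.22. The probe set of Nos2, the inducible nitric oxide synthase gene, exceeded the median of all signals on 0 arrays.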
